A study of Mus musculus with 12 samples.

Results

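The 10 genes of the ATF4 stress response studied in mouse epiblast stem cells (EpiSCs) were Atf4, Atf3, Ddit3, Ddit4, Ppp1r15a, Trib3, Chac1, Asns, Sesn2 and Aldh1l2. They were taken as a named list of 10 among 19938 genes tested. The list was chosen with earlier results of these data known. Shares of members set beside shares of all genes therefore describe the list and do not test it. Each was measured by 1 probe annotated to that gene alone. EpiSCs are grown from the epiblast of the implanted embryo and keep its pluripotency. All 12 arrays came from EpiSCs of genetic background 129, kept for 12 h in what the design text calls serum-free medium, although the growth protocol of every sample lists 10% fetal bovine serum. The groups, of 3 arrays each, were CHIR99021 (3 µM) with XAV939 (2 µM), CHIR99021 alone, XAV939 alone, and untreated cells. CHIR99021 inhibits the kinase GSK3 and so stabilises beta-catenin, and XAV939 inhibits tankyrase and so lowers beta-catenin. The sample labels give 2 h for every treatment, whereas the design text gives 4 h for XAV939. No vehicle is named for the untreated cells. The labels also call the cells embryonic stem cells, and they do not say whether the 3 arrays of a group stand for independent cultures. The p-values therefore speak of array-to-array spread alone, which may be technical.

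The integrated stress response begins when a stress-sensing kinase phosphorylates the translation factor eIF2alpha. General translation then falls while the Atf4 mRNA is translated more, so that ATF4 protein can rise with little change of its mRNA. ATF4 is a basic leucine zipper factor that pairs with C/EBP proteins and switches on genes for amino acid supply, redox balance and, through Ddit3, cell death. Several of the 10 genes, such as Atf3, Ddit4 and Ppp1r15a, also answer to other signals and do not report ATF4 alone. Only mRNA was measured here.

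All 10 genes lay above the background measure of 4.94 on the log2 scale, the 95th percentile of the mean levels of 1194 olfactory and vomeronasal receptor genes. All 13 pluripotent and epiblast markers were above background, with Pou5f1 at 11.5, Sox2 at 11.2 and Fgf5 at 8.16 on average. Of 18 fibroblast and feeder cell markers, 8 were above background, and the array means of the list lay at 4.90 to 5.002 with both compounds, 4.93 to 4.98 with CHIR99021, 4.96 to 4.99 with XAV939 and 4.98 to 5.05 in untreated cells. Thy1 (7.54), Fbln1 (6.29), Acta2 (5.50), Col1a1 (5.36) and Tagln (5.28) were the highest of these on average, and Col3a1 (4.79), Pdgfra (4.29), Postn (4.19), Dcn (4.08) and Lum (3.88) were among the 10 below background. In such bulk samples, fewer cells with a transcript and less transcript per cell cannot be told apart. Across all its probes, an array had a standard deviation of 2.18 to 2.21 with both compounds, 2.16 to 2.19 with CHIR99021, 2.14 to 2.19 with XAV939 and 2.14 to 2.18 in untreated cells, lowest in untreated replicate 3. Markers of naive pluripotency were above background for 6 of 12 genes, with Fgf4 (8.94) and Klf5 (8.76) the highest. Those of differentiated cells were above it for 7 of 14, with Krt18 (8.15) and Krt8 (7.82) the highest. Over all genes tested, 11594 of 19938 were above background. Of all these markers, limma's moderated test called only Cdx2, of the differentiated list and below background on average (4.51). Cdx2 rose by 0.46 with CHIR99021 (SE 0.09, adjusted p = 0.0461), where 0.256% of all genes were called higher. The call held in 11 of 21 alternative fits. Fgf4 differed by -0.49 with CHIR99021 (SE 0.10, adjusted p = 0.0533) and did not pass.

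The 10 genes did not move as a block. Atf3, Ddit4 and Ppp1r15a stood higher on every treated array than on any untreated array. Trib3, Sesn2 and Aldh1l2 showed smaller differences, Ddit3 and Chac1 overlapped between most groups, and Atf4 and Asns differed by at most 0.07 in any comparison with untreated cells. Against untreated cells, limma's moderated test with Benjamini-Hochberg adjustment over all genes called 3 of the 10 higher with both compounds, 2 with CHIR99021 and 0 with XAV939. The shares of all genes called higher were 0.818%, 0.256% and 0.0% in that order. No member was called lower in any of these comparisons, against 0.311%, 0.166% and 0.0% of all genes. All 3 comparisons share the untreated arrays.

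Atf3 encodes a stress-induced basic leucine zipper repressor that ATF4 and other pathways switch on. Its log2 level was 9.23, 8.88 and 8.79 with both compounds, 8.87, 8.92 and 8.78 with CHIR99021, 8.92, 8.96 and 8.75 with XAV939, and 8.45, 8.35 and 8.10 in untreated cells. Every treated array exceeded the highest untreated array, and the treated groups overlapped each other. Atf3 rose by 0.67 with both compounds (SE 0.11, a fold of 1.59, limma adjusted p = 0.0153) and by 0.56 with CHIR99021 (SE 0.11, adjusted p = 0.0343). The difference with XAV939 was 0.58 (SE 0.11). It had an adjusted p of 0.155 and was not called, in a comparison where limma called no gene at all (unadjusted p = 8.4e-05).

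Ddit4 encodes REDD1, which restrains the growth kinase complex mTORC1. On the log2 scale it stood at 10.11, 10.22 and 10.07 with both compounds, 10.08, 9.94 and 9.94 with CHIR99021, 10.00, 10.06 and 9.75 with XAV939, and 9.52, 9.51 and 9.36 in untreated cells. The untreated arrays again lay below all 9 treated ones. Ddit4 rose by 0.67 with both compounds (SE 0.09, limma adjusted p = 0.00399) and by 0.52 with CHIR99021 (SE 0.09, adjusted p = 0.014). With XAV939 the difference was 0.47 (SE 0.09, adjusted p = 0.155), which did not pass.

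Ppp1r15a encodes GADD34, which brings a phosphatase to eIF2alpha and so ends the response. Log2 values of 8.03, 7.94 and 7.64 were measured with both compounds, 7.80, 7.57 and 7.78 with CHIR99021, 7.88, 7.79 and 7.72 with XAV939, and 7.45, 7.29 and 7.05 in untreated cells. The lowest treated array, at 7.57, was above the highest untreated array. Ppp1r15a rose by 0.61 with both compounds (SE 0.11, limma adjusted p = 0.0212). The differences of 0.45 with CHIR99021 and 0.53 with XAV939 (SE 0.11 each) did not pass (adjusted p = 0.104 and 0.221). Atf3, Ddit4 and Ppp1r15a were thus 3 of 10 members whose 9 treated arrays all exceeded the 3 untreated arrays, a pattern found in 1.74% of all genes. Because the members were chosen with earlier results known, this contrast is not a separate test.

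**Figure D1:**
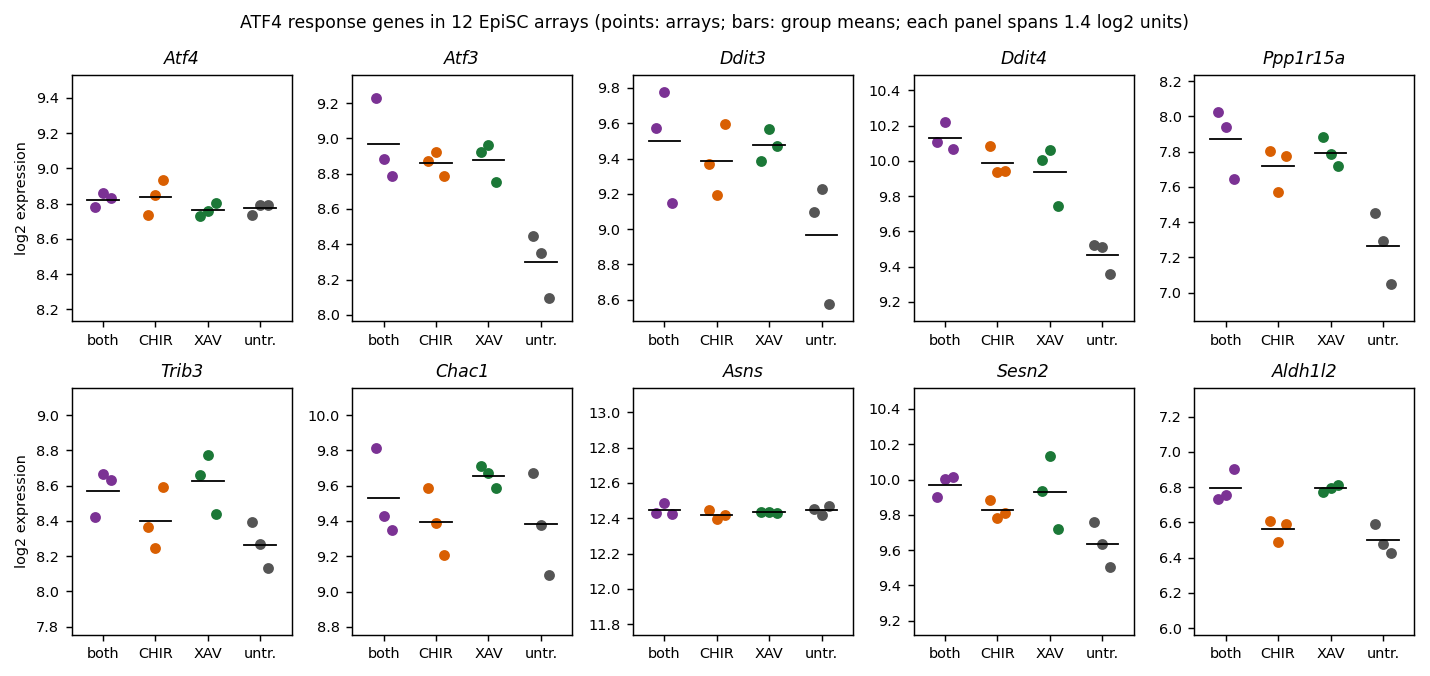
Log2 expression (vertical axis) of the 10 genes on each array, with both compounds, CHIR99021, XAV939 and untreated cells from left to right; points are arrays and bars are means of 3. For Atf3, Ddit4 and Ppp1r15a all 9 treated points lie above the 3 untreated points, whereas Atf4 and Asns are level.

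Ddit3 encodes CHOP, a basic leucine zipper factor tied to cell death under endoplasmic reticulum stress. The log2 level of Ddit3 was 9.57, 9.78 and 9.15 with both compounds, 9.37, 9.19 and 9.60 with CHIR99021, 9.39, 9.57 and 9.47 with XAV939, and 9.10, 9.23 and 8.57 in untreated cells. Untreated replicate 3 stood alone at 8.57, and the other untreated arrays overlapped those with CHIR99021 and with both compounds. The differences of 0.53 with both compounds, 0.42 with CHIR99021 and 0.51 with XAV939 had the largest standard error of the 10 genes (0.16) and did not pass (adjusted p = 0.0994, 0.362 and 0.286).

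Printed here are the 250 bases before the RefSeq start (build GRCm38.p6) of the 3 genes called and of Asns and Chac1, long-known ATF4 targets that were not called. Capitals mark a match to the C/EBP-ATF response element, searched as TGATGNAA or TTNCATCA, or to the cAMP response element TGACGTCA, a site of CREB and ATF family factors.
Atf3, chr1:191183334-191183583, minus strand: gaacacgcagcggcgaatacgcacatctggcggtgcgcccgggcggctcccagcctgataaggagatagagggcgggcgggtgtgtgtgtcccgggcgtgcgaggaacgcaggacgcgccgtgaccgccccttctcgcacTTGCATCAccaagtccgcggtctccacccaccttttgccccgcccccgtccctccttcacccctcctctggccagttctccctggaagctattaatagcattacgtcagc
Ppp1r15a, chr7:45526269-45526518, minus strand: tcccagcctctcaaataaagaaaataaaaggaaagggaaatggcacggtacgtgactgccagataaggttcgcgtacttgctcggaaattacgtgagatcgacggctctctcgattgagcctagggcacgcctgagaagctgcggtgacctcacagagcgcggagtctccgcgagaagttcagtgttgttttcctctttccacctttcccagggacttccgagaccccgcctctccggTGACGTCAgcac
Ddit4, chr10:59951771-59952020, minus strand: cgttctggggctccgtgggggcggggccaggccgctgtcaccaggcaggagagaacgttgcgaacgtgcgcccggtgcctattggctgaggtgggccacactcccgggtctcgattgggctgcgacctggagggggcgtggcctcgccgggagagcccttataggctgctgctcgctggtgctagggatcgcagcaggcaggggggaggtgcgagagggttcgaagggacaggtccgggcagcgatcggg
Asns, chr6:7693210-7693459, minus strand: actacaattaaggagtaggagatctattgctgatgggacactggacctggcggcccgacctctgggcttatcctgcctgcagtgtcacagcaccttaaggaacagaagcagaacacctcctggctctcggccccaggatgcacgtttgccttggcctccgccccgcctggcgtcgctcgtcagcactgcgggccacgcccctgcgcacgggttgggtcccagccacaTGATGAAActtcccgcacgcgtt
Chac1, chr2:119350992-119351241, plus strand: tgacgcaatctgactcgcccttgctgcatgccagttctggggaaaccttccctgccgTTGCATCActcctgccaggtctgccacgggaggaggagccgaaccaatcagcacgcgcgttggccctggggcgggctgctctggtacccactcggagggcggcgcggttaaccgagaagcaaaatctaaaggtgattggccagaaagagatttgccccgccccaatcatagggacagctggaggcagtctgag
Windows of 250 bases before to 50 after the start were given for 9 of the 10 genes, all but Aldh1l2. The C/EBP-ATF element was matched in 4 of the 9 windows and in 3.97% of 32851 windows of the same length. It lay 110 to 103 bases before the start in Atf3, 193 to 186 in Chac1 and 23 to 16 in Asns, and the match in Trib3 (TTACATCA) lay 15 to 22 bases after the start. The cAMP response element was matched in Ppp1r15a, 12 to 5 bases before the start, and in 1.79% of all windows. The endoplasmic reticulum stress element was matched in 0 of the 9 windows and in 0.119% of all. The windows of Ddit4, Ddit3, Sesn2 and Atf4 held none of the 3 motifs. The genes called thus had an ATF element (Atf3), a cAMP element (Ppp1r15a) or neither (Ddit4) in these windows, while Asns and Chac1, which were not called, held the ATF element. A match is letters in a window and not a measured site.

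Trib3, Sesn2 and Aldh1l2 differed less, and 0 of the 3 was called in any comparison. Trib3 encodes a pseudokinase that binds AKT and ATF4 and damps the response. On the log2 scale it gave 8.42, 8.66 and 8.63 with both compounds, 8.37, 8.24 and 8.59 with CHIR99021, 8.66, 8.78 and 8.44 with XAV939, and 8.39, 8.27 and 8.13 in untreated cells. The arrays with XAV939 lay above the untreated arrays, with or without CHIR99021, while those with CHIR99021 alone overlapped them. The differences from untreated cells were 0.31 with both, 0.14 with CHIR99021 and 0.36 with XAV939 (SE 0.11 each, adjusted p = 0.144, 0.719 and 0.27).

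Sesn2 encodes sestrin 2, a leucine sensor that restrains mTORC1. Its log2 level was 9.90, 10.00 and 10.01 with both compounds, 9.88, 9.78 and 9.81 with CHIR99021, 9.93, 10.13 and 9.72 with XAV939, and 9.76, 9.63 and 9.51 in untreated cells. Only XAV939 replicate 3, at 9.72, fell below an untreated array. The differences from untreated cells were 0.34 with both, 0.19 with CHIR99021 and 0.29 with XAV939 (SE 0.10 each, adjusted p = 0.0865, 0.522 and 0.299).

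Aldh1l2, a mitochondrial enzyme of folate metabolism, was the member that separated arrays by XAV939. The log2 level of Aldh1l2 was 6.73, 6.76 and 6.90 with both compounds, 6.61, 6.49 and 6.59 with CHIR99021, 6.77, 6.79 and 6.81 with XAV939, and 6.59, 6.48 and 6.43 in untreated cells. All 6 arrays with XAV939 exceeded all 6 without it, a pattern that held for 1 of the 10 members and for 1.01% of all genes. The change with XAV939 was 0.30 (SE 0.07, adjusted p = 0.226) against untreated cells. Both compounds against CHIR99021, which uses none of those arrays, gave 0.23 (SE 0.07, adjusted p = 0.297). Neither passed. With both compounds against untreated cells the difference was 0.30 (SE 0.07, adjusted p = 0.06), and with CHIR99021 it was 0.06.

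Chac1, Asns and Atf4 overlapped between untreated and treated groups. Chac1 encodes an enzyme that degrades glutathione and is a known ATF4 target. Its log2 level was 9.81, 9.43 and 9.35 with both compounds, 9.59, 9.39 and 9.21 with CHIR99021, 9.71, 9.67 and 9.59 with XAV939, and 9.67, 9.38 and 9.10 in untreated cells. The untreated arrays alone ran from 9.10 to 9.67, nearly the span of all treated arrays (9.21 to 9.81), and the differences of 0.15, 0.01 and 0.27 (SE 0.14 each) did not pass. The arrays numbered 1 were the highest of their group in all 4 groups, and the numbers do not mark a shared culture or day in the labels.

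Asns encodes asparagine synthetase, a textbook target of ATF4 under amino acid shortage. Its log2 level ran from 12.43 to 12.48 with both compounds, 12.39 to 12.45 with CHIR99021, 12.43 to 12.44 with XAV939 and 12.42 to 12.47 in untreated cells. All 4 groups coincided, and the 95% confidence interval of the difference with both compounds ran from -0.14 to 0.13. Atf4 ran from 8.78 to 8.86 with both compounds, 8.74 to 8.93 with CHIR99021, 8.73 to 8.80 with XAV939 and 8.74 to 8.79 in untreated cells. Its differences were 0.05, 0.07 and -0.01 (SE 0.07 each), with a 95% interval of -0.10 to 0.20 for both compounds. These intervals do not include a change of the size seen for Atf3, Ddit4 or Ppp1r15a.

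Setting the 10 side by side, the median difference from untreated cells was 0.32 with both compounds, 0.16 with CHIR99021 and 0.33 with XAV939. Over all genes tested it was -0.01, -0.01 and 0.00, and over the 11594 genes above background 0.05, 0.02 and 0.03. With XAV939 limma called 0 genes of 19938. At an unadjusted p under 0.05 there were 2241 genes (11.2%), among them 7 of the 10 members, all higher. These 7 were Atf3, Ddit3, Ddit4, Ppp1r15a, Trib3, Sesn2 and Aldh1l2. With both compounds the same threshold took in 3726 genes (18.7%) and the same 7 members, and with CHIR99021 2053 genes (10.3%) and 4 members. Groups that did not overlap, treated above untreated, numbered 6 of 10 members with both compounds (13.0% of all genes), 4 with CHIR99021 (8.09%) and 6 with XAV939 (9.48%).

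For Atf3, Ddit4, Ppp1r15a and Ddit3, the estimates were smaller in the comparisons without the untreated arrays, although the interaction, which tests the difference, called no member. Both compounds against XAV939 alone gives the CHIR99021 change with XAV939 present, and shares no array with CHIR99021 against untreated cells. There Atf3 differed by 0.09 (SE 0.11), Ddit4 by 0.19 (SE 0.09), Ppp1r15a by 0.08 (SE 0.11) and Ddit3 by 0.02 (SE 0.16). Both compounds against CHIR99021 alone gives the XAV939 change with CHIR99021 present, and there Atf3 differed by 0.11, Ddit4 by 0.14, Ppp1r15a by 0.15 and Ddit3 by 0.11, with the same standard errors. For Atf3 the 95% intervals ran from -0.15 to 0.32 and from -0.13 to 0.34. Against untreated cells they were 0.33 to 0.80 with CHIR99021 and 0.35 to 0.82 with XAV939. For Ddit4 they ran from 0.00 to 0.38 and from -0.05 to 0.33. These overlapped the intervals against untreated cells, 0.33 to 0.71 with CHIR99021 and 0.28 to 0.66 with XAV939. For either compound, the gap between the estimates with and without untreated arrays is the same interaction. They are therefore not separate results, and limma's adjusted p of the interaction was 0.965 for both genes. Estimates were also lower there for Trib3, Sesn2, Chac1, Aldh1l2 and, slightly, Atf4, and higher for Asns alone. Aldh1l2 differed by 0.23 between both compounds and CHIR99021, against 0.30 between XAV939 and untreated cells. Chac1 differed by -0.13 between both compounds and XAV939, against 0.01 between CHIR99021 and untreated cells.

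Over all 10 members, differences ran from -0.13 to 0.19 for both compounds against XAV939 and from -0.02 to 0.23 for both against CHIR99021. In each comparison limma called 0 of the 10 members, with 1 at an unadjusted p under 0.05 (Ddit4 against XAV939, Aldh1l2 against CHIR99021). Limma called 0.236% and 0.0251% of all genes there, while 1932 and 2186 genes had an unadjusted p under 0.05. The 3 arrays with both compounds lay above the 3 with XAV939 for 1 of the 10 members (Ddit4, whose nearest arrays were at 10.07 and 10.06) and for 6.94% of all genes. They lay above the 3 with CHIR99021 for 2 of the 10 (Sesn2 and Aldh1l2) and for 8.92% of all genes.

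**Figure D2:**
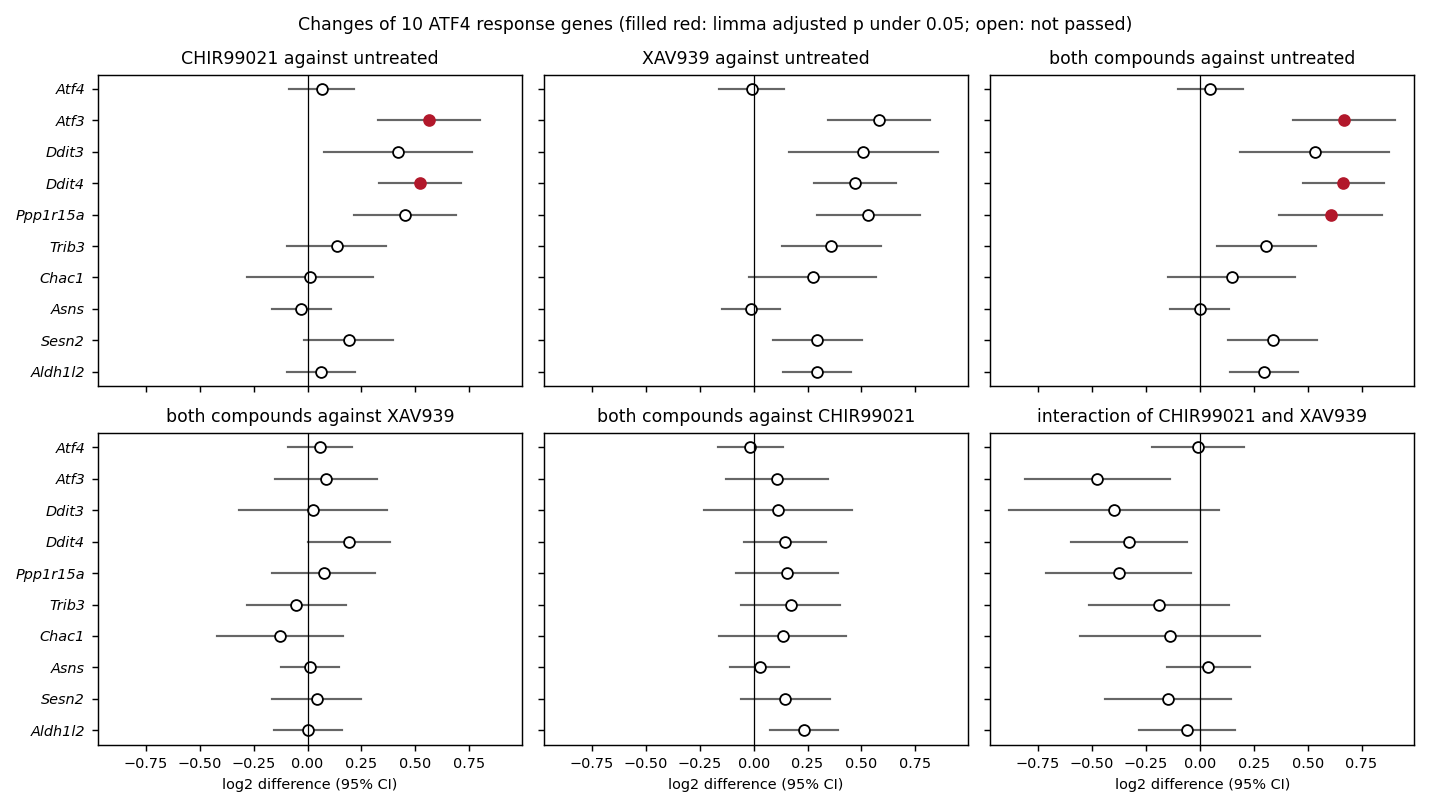
Log2 differences (horizontal axes) with 95% confidence intervals for the 10 genes (vertical axes) in 6 comparisons; filled red points passed limma's adjusted p of 0.05. The top panels use the untreated arrays and reach 0.67; the panels of both compounds against each compound alone do not and stay between -0.13 and 0.23.

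The interaction, which is the change with CHIR99021 in the presence of XAV939 less the change in its absence, tests whether the compounds' changes add up. It was negative for 9 of the 10 members, at -0.48 for Atf3 (SE 0.16), -0.40 for Ddit3 (SE 0.23), -0.38 for Ppp1r15a (SE 0.16) and -0.33 for Ddit4 (SE 0.13). The median interaction over all genes tested was 0.0019. Negative values mean that the joint change was smaller than the sum of the separate ones. Limma called 0 of the 10 members and 0.0% of all genes, and for each of these 4 the adjusted p was 0.965. At an unadjusted p under 0.05 there were Atf3, Ddit4 and Ppp1r15a among the members and 985 genes (4.94%) in all. The separate changes and the interaction share the untreated arrays, so a low value in these arrays raises each separate change and lowers the interaction.

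Untreated replicate 3 gave the lowest of the untreated values for 8 of the 10 genes, all but Atf4 and Asns, against 37.0% of all genes. For the same 8 it was also the lowest of all 12 arrays, against 11.4% of all genes. Untreated replicate 1 gave the highest of the untreated values for 7 of the 10, against 36.6% of all genes. Leaving out replicate 3 must lower the differences of these 8 genes, since it is their lowest untreated array. Without replicate 3 the differences with both compounds were 0.57 for Atf3, 0.61 for Ddit4, 0.50 for Ppp1r15a, 0.34 for Ddit3 and 0.00 for Chac1. Only Ddit4 kept its call there (adjusted p = 0.0362), while the calls of Atf3 and Ppp1r15a ended (adjusted p = 0.0823 and 0.107). With CHIR99021 both calls ended without it, at 0.46 for Atf3 and 0.47 for Ddit4 (adjusted p = 0.202 and 0.0866). The differences of Atf3, Ddit4 and Ppp1r15a thus remained at 0.34 or more in each comparison with untreated cells when this array was left out. Ddit3 depended on it more, with a change of 0.22 with CHIR99021 without it against 0.42 with it.

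The calls also rested on other arrays. The call of Atf3 with CHIR99021 ended without untreated replicate 2 or any CHIR99021 array (adjusted p between 0.0761 and 0.146) and, just over the threshold, without array 2 of both compounds (adjusted p = 0.05005). That of Ddit4 with CHIR99021 ended without CHIR99021 replicate 1 (adjusted p = 0.0715). With both compounds, the call of Atf3 ended without replicate 2 of the group (adjusted p = 0.0558), and that of Ppp1r15a without replicates 1 or 2 of the group or untreated replicate 2 (adjusted p = 0.0679, 0.0941 and 0.0691). The call of Ddit4 with both compounds held in all 22 alternative fits, with changes between 0.61 and 0.72. When array spread entered the fit as a covariate, Ddit4 kept its call with both compounds, while Atf3 and Ppp1r15a, at 0.70 and 0.58, did not (adjusted p = 0.0637 and 0.0966). The part of array spread in the changes was not tested further.

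**Figure D3:**
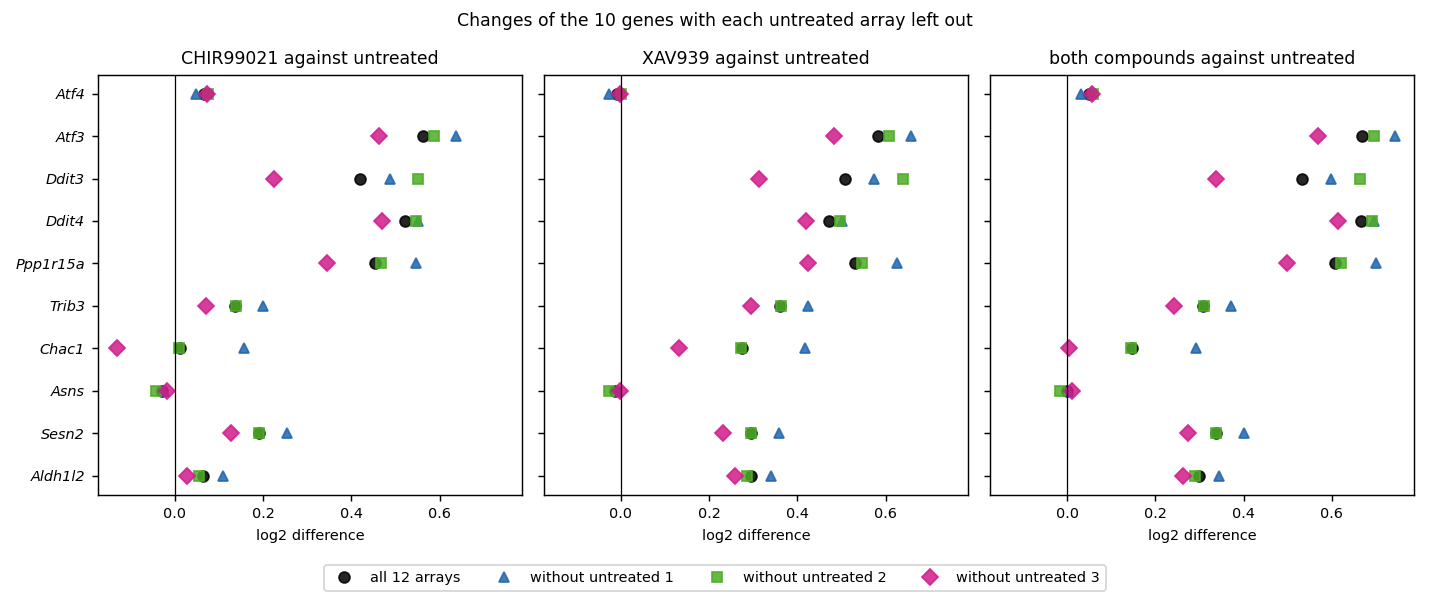
Log2 differences (horizontal axes) of the 10 genes from untreated cells, with all 12 arrays and without each untreated array in turn, in 3 comparisons. Untreated replicate 3 is the lowest untreated array for 8 genes, so leaving it out must lower their differences in each panel. That of Chac1 with CHIR99021 falls to -0.13. Without it Atf3, Ddit4 and Ppp1r15a stay at 0.50 or above with both compounds.

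The machinery around ATF4 was read from lists chosen with earlier results of these data known. Over all genes, 0.818% were called higher and 0.311% lower with both compounds. With CHIR99021 the shares were 0.256% and 0.166%, and with XAV939 0.0% in either direction. At such shares a count of 0 in any of these lists does not set it apart from all genes. Upstream, the kinases, phosphatase subunits and eIF2B genes gave 0 called of 15 measured in each comparison with untreated cells. Their medians were 0.02 with both compounds, 0.02 with CHIR99021 and 0.02 with XAV939. The kinase genes Eif2ak1 (HRI), Eif2ak2 (PKR), Eif2ak3 (PERK) and Eif2ak4 (GCN2), which sense different stresses, differed by 0.17, -0.01, -0.03 and 0.12 with both compounds. Ppp1r15b, the constitutive counterpart of Ppp1r15a, differed by 0.13 (SE 0.08).

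Partner and competitor factors of the basic leucine zipper family gave 0 called of 19. Those with the smallest p were Jun, a subunit of AP-1, at 0.43 with both compounds (SE 0.10, adjusted p = 0.0546), Cebpb, a dimer partner of ATF4, at 0.44 with both (SE 0.11, adjusted p = 0.0566), and Jdp2, a repressor of AP-1 sites, at 0.29 with CHIR99021 (SE 0.07, adjusted p = 0.0974). The calls of Jun and Cebpb with both compounds appeared in 4 of 22 alternative fits each.

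The lists of amino acid supply, a main branch of the ATF4 programme, held 1 called gene. Among all genes, 0.818% were called higher with both compounds, and whether the called gene answers to ATF4 was not tested. Of 12 transporters, Slc38a7, a lysosomal glutamine and asparagine exporter, rose with both compounds by 0.54 (SE 0.11, adjusted p = 0.0264), and the call ended in 7 of 22 alternative fits, including those without untreated replicates 2 or 3 or any array with both compounds. Slc1a4, a transporter of neutral amino acids, differed by 0.41 with XAV939 and Slc7a1, a transporter of cationic ones, by 0.27 with both compounds, and neither passed (adjusted p = 0.221 and 0.117). The transporter medians were 0.12 with both compounds, 0.00 with CHIR99021 and 0.09 with XAV939.

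Serine, glycine and one-carbon genes gave 0 called of 15 in each comparison with untreated cells, with a median of 0.09 with both compounds. Gpt2, an aminotransferase, differed by 0.21 with XAV939, and Aldh1l1 and Shmt1, enzymes of cytosolic folate metabolism, by 0.18 and 0.16 with both compounds. Aminoacyl-tRNA synthetases gave 0 called of 19, with a median of 0.07 with both compounds. Vars differed by 0.21 with XAV939, and Wars and Hars by 0.15 and 0.19 with both compounds. None of the 6 genes named here passed.

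Other reported targets of the stress response gave 1 called gene of 16, with both compounds, where 0.818% of all genes were called higher. Gadd45a, which responds to DNA damage and other stresses, rose with both compounds by 0.48 (SE 0.09, adjusted p = 0.0239) and differed by 0.39 with CHIR99021 and 0.41 with XAV939. Its call ended in 7 of 22 alternative fits, among them those without untreated replicate 3 and without replicates 1 or 2 of both compounds. Vldlr, a lipoprotein receptor gene, differed by 0.24 with both compounds, and Bbc3, the death gene PUMA, by -0.35 with CHIR99021, and neither passed. The median of this list was 0.17 with both compounds.

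The ATF6 and XBP1 branch, which serves protein folding in the endoplasmic reticulum, gave 0 called of 19 and a median of 0.04 with both compounds. Ern1, the sensor IRE1, and Hyou1, a chaperone, differed by 0.29 and 0.28 with both compounds, and Dnajc3, a co-chaperone, by 0.40 with CHIR99021, and these did not pass. Regulators of mTORC1 gave 0 called of 17 and a median of 0.12 with both compounds. Rptor, Tsc1 and Mtor differed by 0.35, 0.29 and 0.28 with both compounds, while the relatives of Sesn2 and Ddit4 gave -0.16 for Sesn1, 0.08 for Sesn3 and 0.07 for Ddit4l.

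Immediate early genes answer within minutes to signals and handling, and Atf3 and Ppp1r15a are often counted with them. Of 26 measured, 1 was called higher and 1 lower with both compounds, 0 higher and 2 lower with CHIR99021, and 0 in either direction with XAV939. Over all genes, 0.818% were called higher and 0.311% lower with both compounds, and 0.256% higher and 0.166% lower with CHIR99021. For both compounds against XAV939, 4 of the 26 were called lower (Myc, Gadd45b, Ccn1 and Ccn2) and 0 higher. There 0.236% of all genes were called in either direction. Klf10, which encodes a transcriptional repressor, rose by 0.59 with both compounds (SE 0.11, adjusted p = 0.0197). Its call ended in 5 alternative fits, among them those without untreated replicates 2 or 3. Ccn2, a matricellular protein gene, fell by 0.46 (SE 0.09, adjusted p = 0.03), a call that ended in 8 alternative fits, those without any 1 untreated array included. Gadd45b, a relative of Gadd45a, fell by 0.70 with CHIR99021 (SE 0.08, adjusted p = 0.000179), whereas Gadd45a differed by 0.39. Zfp36, which destabilises inflammatory mRNAs, fell by 0.37 with CHIR99021 (adjusted p = 0.0399). The array means of this list were 6.82 to 6.88 with both compounds, 6.74 to 6.80 with CHIR99021, 6.90 to 6.94 with XAV939 and 6.81 to 6.84 in untreated cells. Over the 10 ATF4 response genes they were 9.18 to 9.30, 9.08 to 9.18, 9.15 to 9.29 and 8.75 to 9.01 in the same order of groups. By array means, the untreated arrays were thus the lowest group for the ATF4 response genes and not for the immediate early genes. Of the 26 immediate early genes, 14 differed upward with both compounds, 7 with CHIR99021 and 19 with XAV939. Jun, also in this list, differed by 0.43, 0.42 and 0.33 in that order, and Klf10 by 0.59, 0.50 and 0.28. A part of handling was not tested. The untreated arrays were also lowest for the other stress response targets, at 8.61 to 8.75. Treated arrays gave 8.84 to 8.89 with both compounds, 8.78 to 8.82 with CHIR99021 and 8.83 to 8.85 with XAV939. For the basic leucine zipper partners the array means were 6.96 to 7.04 with both compounds, 6.94 to 7.01 with CHIR99021, 6.95 to 7.01 with XAV939 and 6.85 to 6.93 in untreated cells, again with no overlap. The nearest of these were 6.932 in untreated cells and 6.941 with CHIR99021. In the other 6 related lists at least 1 untreated array reached the range of a treated group. No array mean over all genes was set beside these list means. The 11594 genes above background had median differences of 0.05 with both compounds, 0.02 with CHIR99021 and 0.03 with XAV939. Whether the gaps belong to these lists or to the arrays as a whole was not tested.

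**Figure D4:**
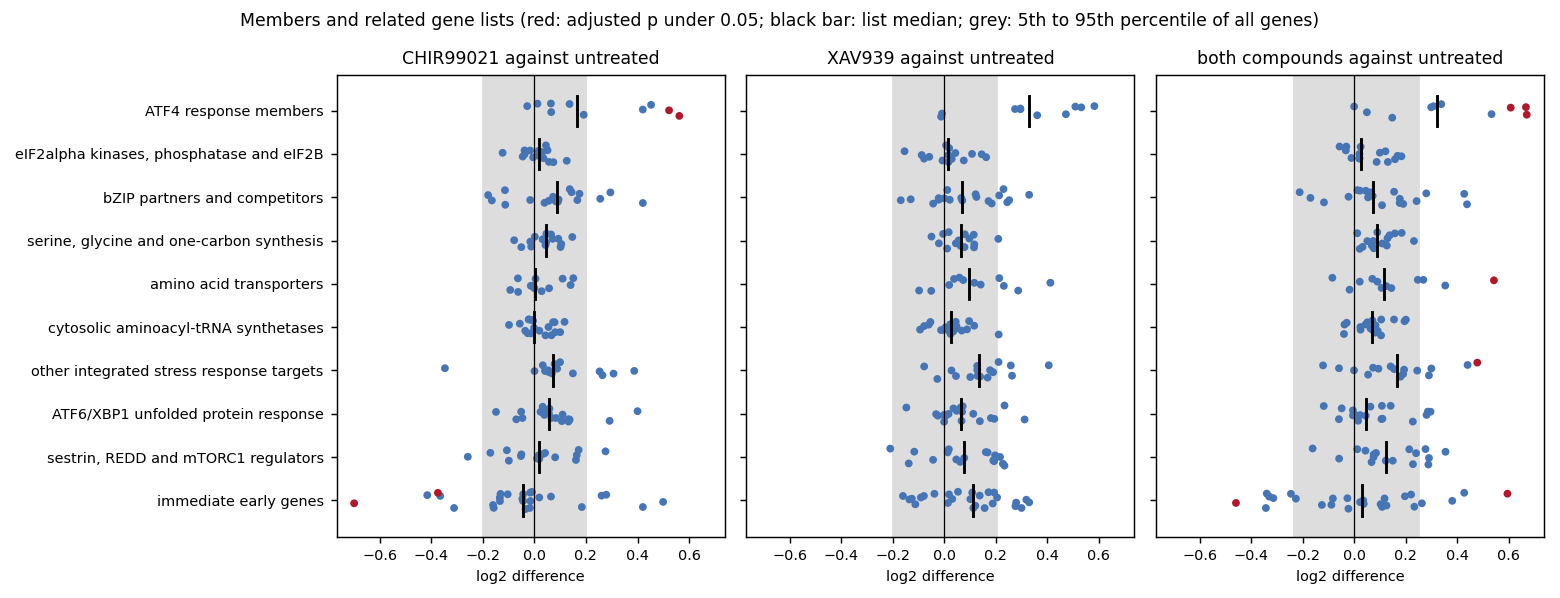
Log2 differences (horizontal axes) from untreated cells for the members and 9 related gene lists; points are genes (red where adjusted p is under 0.05), black bars are list medians and the grey band spans the 5th to 95th percentile of all genes (-0.23 to 0.25 with both compounds). The member median is 0.32 with both compounds, 0.16 with CHIR99021 and 0.33 with XAV939; the band shows the spread of single genes and not of medians.

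Likeness in pattern was measured as Pearson's r over the 12 arrays, among 11593 genes above background, and describes arrays that share the 4 groups and the array-wide spread. The genes most like Atf3 were Ptar1 (r = 0.940), Ppp1r15a (0.932), Slx1b (0.930), Syvn1 (0.929) and Fkbp15 (0.924). Ppp1r15a was thus the only other member among the 5. The genes most like Ddit4 were Chfr (0.943), Gadd45a (0.941), Trp53bp2 (0.939), Flcn (0.936) and Med13 (0.934). With any 1 array left out, r for these 10 pairs stayed between 0.869 and 0.974.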

How the data were processed

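Per the labels, biotinylated RNA was read on 1-colour Affymetrix arrays. The deposited values were taken to be log2 expression; no header states the base, which was inferred from the range (2.52 to 14.3). The submitters' processing notes name Partek, while background correction, normalization and probe summary are not given in the sources used here. Medians of the arrays were 5.22 to 5.27, and no normalization was added. The platform annotation gave 1 gene symbol for 21789 of 35399 probes, several for 1621 and no entry for 11989; symbols were updated through the RefSeq table of GRCm38.p6. The brightest probe on average stood for a gene.

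Means of the 4 groups were fitted with limma 3.58.1 in R 4.3.3 (lmFit, eBayes, two-sided) on all 12 arrays, with Benjamini-Hochberg adjustment over 19938 genes and calls at an adjusted p under 0.05. Confidence intervals are from the fit. The members and lists were chosen with earlier results of these data known. Named genes were all 10 members, up to 3 per list by smallest p against untreated cells, and the 5 genes most correlated with Atf3 and Ddit4; the kinases, Ppp1r15b, Sesn1, Sesn3 and Ddit4l were added after their values were seen. Motifs were searched on both strands. Alternatives were quantile normalization, median centring, a filter on dim genes, mean of probes, fits to the compared groups, limma's trend and robust options, a replicate block, array weights, array standard deviation as covariate, and left-out arrays. The number of arrays limits the precision. Figures used matplotlib 3.10.9 in Python 3.11.15.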

Additional observations from a re-analysis of the deposited data

How the results depend on the processing

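The 22 alternative fits kept the side of the threshold and the direction in 2025 of 2160 recomputed values of 99 results; 57 lost a call, 28 gained one and 50 changed sign. The number of members called with CHIR99021 against untreated cells, 2 with all arrays, was between 0 and 2 with 1 array left out and 0 without the 2 arrays of lowest standard deviation (untreated replicate 3, XAV939 replicate 2). With both compounds against untreated cells the number, 3 with all arrays, was between 1 and 3 with 1 array left out, 1 without those 2 arrays together, 1 with array standard deviation as a covariate, and 4 with median centring, the dim-gene filter or array weights, where Aldh1l2 was added. The calls of Atf3 and Ppp1r15a with both compounds ended with that covariate (changes of 0.70 and 0.58). With the replicate block the numbers were 2 with CHIR99021 and 3 with both compounds, and it ended or added no call of a member. Same-numbered arrays did not deviate together (6 of 18 pairs correlated above 0.1, range -0.25 to 0.20), so the numbers were not taken as pairs. In the other 4 comparisons the number of members called was 0 in each fit; for the interaction no fit of the compared groups alone was run, since it uses all groups. The cause was not tested.

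Sign changes among members concerned small differences. Atf4 gave 0.0018 with XAV939 after median centring and 0.0018 without the 2 arrays, -0.0112 with both compounds after quantile normalization, 0.00055 for both against CHIR99021 after centring, and an interaction of 0.00039 with array weights. Ddit3 gave -0.00071 after quantile normalization and -0.0268 with the covariate for both against XAV939, Trib3 gave 0.0226 there without the 2 arrays, and Aldh1l2 gave -0.0325 after quantile normalization and -0.0349 with the covariate. Chac1 with CHIR99021 gave -0.0162 after quantile normalization, -0.0159 with array weights and -0.13 without the 2 arrays, where its interaction was 0.0116. Asns gave 0.0039 with XAV939 after quantile normalization, and with both compounds 0.0254 after centring, 0.0084 with weights, 0.0126 with the covariate and 0.0104 without the 2 arrays; for both against XAV939 it gave -0.0069 after quantile normalization. The Sesn2 interaction was 0.0176 without the 2 arrays. With 1 array left out, ranges that crossed 0 were, for Atf4, -0.0287 to 0.0077 with XAV939, -0.0672 to 0.0304 for both against CHIR99021 and -0.0581 to 0.0395 for the interaction. For both against XAV939 they were -0.043 to 0.18 (Atf3), -0.11 to 0.20 (Ddit3), -0.0031 to 0.19 (Ppp1r15a), -0.15 to 0.0229 (Trib3), -0.0063 to 0.0224 (Asns), -0.0623 to 0.15 (Sesn2) and -0.0485 to 0.0348 (Aldh1l2). For both against CHIR99021 they were -0.0231 to 0.20 (Atf3), -0.0269 to 0.29 (Ddit3) and -0.0070 to 0.23 (Chac1). For Chac1 they were -0.13 to 0.16 with CHIR99021 and -0.28 to 0.0038 for the interaction, and for Asns -0.019 to 0.0104 with both compounds.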
